A study of Mus musculus with 6 samples.

Results

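The cells described here are 153 of 12139 kept single cells from mouse inguinal lymph nodes, chosen by a gate on their own RNA counts. A cell entered the gate with at least 1 UMI of Xcr1 and at least 1 UMI of Clec9a plus Cadm1, no UMI of Cd79a, Ms4a1 or Cd3e, and fewer than 3 of Ccr7, Fscn1, Ccl22 and Cacnb3 detected. A UMI is a molecular tag that counts 1 captured mRNA molecule. The gate picks the pattern of conventional type 1 dendritic cells (cDC1s), and the remaining 11986 kept cells served as the comparison.

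The 4 donors were CD169Tom mice (Cd169Cre/+ with floxed-stop tdTomato) on a C57BL/6J background, over 6 weeks old and of either sex, in which Cre recombinase made from the Siglec1 (CD169) gene switches on tdTomato permanently, so the fluorescence marks cells that express CD169 or descend from one that did. The 2 immunized mice had received hen egg lysozyme (HEL), as the series' design names it, 9 days earlier, and the 2 unimmunized mice had not. The study's methods describe HEL coupled to an ovalbumin peptide in an adjuvant for recipients of transferred lymphocytes, and which form and adjuvant the sequenced mice received is not stated there. Cells were stained with 1 hashtag antibody per mouse and 6 further DNA-tagged antibodies (CITE-seq), and live cells high for CD11b and positive for tdTomato were sorted, pooled and run as 2 10X captures. Every group carried the same reporter alleles, and all results therefore refer to cells that had passed a CD11b and tdTomato sort and not to all dendritic cells of the node. A mouse was the replicate throughout, with 2 per condition.

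Dendritic cells take up antigen and show it to T cells. The type 1 subset depends on the transcription factors Irf8 and Batf3 and senses material of dead cells through the receptor Clec9a. It is known for cross-presentation, in which outside antigen is loaded on MHC class I for CD8 T cells. Xcr1 is the receptor for a chemokine that activated CD8 T cells and NK cells release, and Cadm1 is an adhesion molecule. Type 2 cells (cDC2s) depend on Irf4 and carry CD11b, which type 1 cells have at low levels or lack. Both kinds switch on Ccr7 and a shared maturation program when they migrate.

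Mouse of origin and surface protein were read from 15-base tags, which are the designed sequences on which every assignment below depends. The hashtags of unimmunized mice 1 and 2 and of immunized mice 1 and 2 come first, followed by the tags of the antibodies to the dendritic cell protein CD11c and to CD169, with all bases in lower case because none is singled out.
Hashtag 1: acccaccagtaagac
Hashtag 2: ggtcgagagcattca
Hashtag 3: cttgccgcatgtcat
Hashtag 4: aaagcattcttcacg
CD11c: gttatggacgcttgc
CD169: attgacgacagtcat

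Unimmunized mice 1 and 2 gave 63 and 16 gated cells, and immunized mice 1 and 2 gave 44 and 30. Their summed libraries held 1042175, 222244, 755459 and 597344 UMIs. The gated cells were deeply covered, with a median of 16592, 15983, 17587 and 18648 UMIs per cell against 5797, 6108, 9657 and 12702 in the other cells of the same mice. Depth thus moved with the gate, and shares are also given after each cell was thinned to 2000 UMIs. Of the barcodes, 1242 carried one of 621 sequences that occur in both captures and were left out, since hashtag counts do not say from which capture they come.

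The genes of the gate are given as a description, since they chose the cells. Xcr1 (chr9:123852315-123862029, build GRCm38) had a median of 8, 8.5 and 8.5 UMIs per gated cell in unimmunized mice 1 and 2 and immunized mouse 1, and 1 UMI in immunized mouse 2. In that last mouse 19 of 30 gated cells had entered on a single Xcr1 UMI, against 6 of 63, 1 of 16 and 8 of 44 in the others. Clec9a (chr6:129408862-129424763) had median counts of 5, 6, 4 and 1.5 UMIs, and Cadm1 (chr9:47530173-47857637) 4, 4, 4 and 1. Among B cells that carried both Cd79a and Ms4a1, which should lack Xcr1, 5 cells (1.64%) had an Xcr1 UMI at a median depth of 4892 UMIs, against 127 (1.06%) of all other kept cells at 9903 UMIs. The 127 include 22 cells that met the rest of the gate but carried a lymphocyte gene.

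Markers outside the gate matched the cDC1 label in 3 of the mice and went against it in most gated cells of immunized mouse 2. Of 11 cDC1 markers not used by the rule (Irf8, Batf3, Flt3, Itgae, Cd24a, Tlr3, Wdfy4, Naaa, Ifi205, Gcsam and Snx22), the median gated cell had 10 detected in unimmunized mouse 1, 9.5 in unimmunized mouse 2 and 9 in immunized mouse 1, but 4.5 in immunized mouse 2. The median of all other kept cells was 2. At least 7 of the 11 were detected in 54 of 63, 15 of 16 and 33 of 44 gated cells, and in 9 of 30 in immunized mouse 2, a limit set after the counts had been seen, with 8 cells at 7 markers and 6 cells at 6. These marker-rich cells numbered 111 of the 153. The number of markers detected depends on depth. Marker-rich cells had a median of 17134, 16207, 18724 and 18550 UMIs in the same order of mice. The remaining, marker-poor cells had 4207, 4020 (1 cell), 11324 and 18746 UMIs. Few markers thus went with shallow cells in the unimmunized mice but not in immunized mouse 2, and the part of depth in the split was not tested.

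The marker-rich and the remaining cells of immunized mouse 2 also differed in genes of other cell types. Summed over its 9 marker-rich cells, C1qa, a macrophage complement gene, stood at 21.3 CPM, the counts scaled to the same library total, against 1720.5 CPM in the other 21. Lyz2, the lysozyme gene of monocytes and macrophages, stood at 4398 and 18156 CPM. The 11 marker-poor cells of immunized mouse 1 summed to 2145 CPM of C1qa. These sums came from a part of the cells. In immunized mouse 2, 11 of the 21 marker-poor cells had over 1000 CPM of the 3 C1q genes, a limit set after the values had been seen, and held 1793 of the 1818 C1q UMIs, with a median over the 21 of 1035 CPM. In immunized mouse 1, 3 of the 11 did and held 603 of 613 UMIs, with a median of 102 CPM. The marker-poor cells were thus mixed in both mice. Results that rest on such cells are also given below without immunized mouse 2 or for marker-rich cells alone, and the population is called Xcr1-gated cells from here on.

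**Figure D1:**
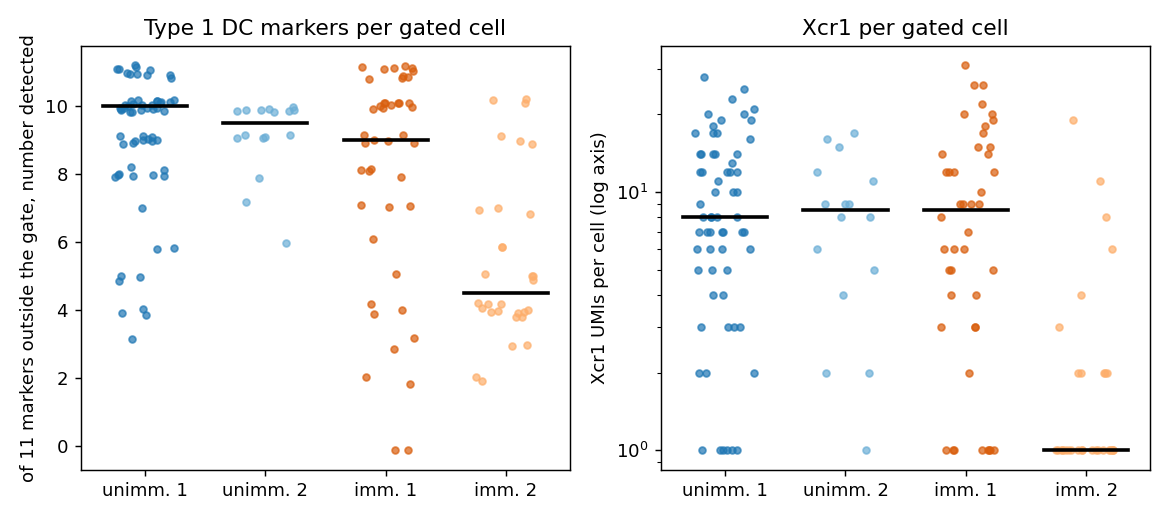
Left, number of 11 cDC1 markers outside the gate detected in each gated cell, by mouse, with points shifted slightly so that they can be told apart. Right, Xcr1 UMIs per gated cell on a log axis. Each point is a cell and black lines are medians, which fall from 10, 9.5 and 9 markers to 4.5 in immunized mouse 2, where 19 of 30 cells had 1 Xcr1 UMI.

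Just outside the rule, among cells that met its lymphocyte and migratory limits, 88 cells had Xcr1 but neither Clec9a nor Cadm1, and 3 of them had 7 or more of the 11 markers. A further 76 such cells had Clec9a and Cadm1 without Xcr1, of which 2 were marker-rich and 64.5% had over 10 UMIs of the C1q genes. Just inside, 14 cells had 1 UMI of Xcr1 and 1 of Clec9a plus Cadm1, and 1 of these was marker-rich. Of the 94 gated cells with 5 or more Xcr1 UMIs, 92 were. The exclusion of cells with Cd79a, Ms4a1 or Cd3e removed 22 cells, of which 18 were marker-rich, and the exclusion of migratory cells removed 1.

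The first comparison asked how common the Xcr1-gated cells were among sorted cells with and without immunization. They made up 2.23% (exact binomial 95% interval 1.72 to 2.84) and 2.98% (1.71 to 4.79) of the kept cells of unimmunized mice 1 and 2, and 1.09% (0.79 to 1.46) and 0.635% (0.429 to 0.906) of those of immunized mice 1 and 2. These intervals cover counting error only. Both unimmunized mice lay above both immunized mice. The means were 2.60% ± 0.53 (SD, n = 2) and 0.861% ± 0.319 (SD, n = 2), which is -1.74 percentage points for immunized minus unimmunized. An exact permutation test over the mice, two-sided, gave p = 0.33, and no smaller value is possible with 2 mice in each group. After thinning, the shares were 1.39%, 2.36%, 0.559% and 0.128%, which left out 306, 28, 117 and 40 shallower cells.

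Marker-rich gated cells alone made up 1.91%, 2.79%, 0.814% and 0.191% of kept cells. As a share of the cells in 3 dendritic cell gates together (the Xcr1 gate, a gate on migratory genes and a gate on Flt3 with Cd209a or Clec10a), the Xcr1-gated cells were 34.8% and 38.1% in the unimmunized mice and 13.0% and 24.2% in the immunized mice. The order of the groups was therefore the same with another denominator. A lower share can arise from fewer such cells or from more of the others, and these cannot be told apart without cell numbers per node.

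**Figure D2:**
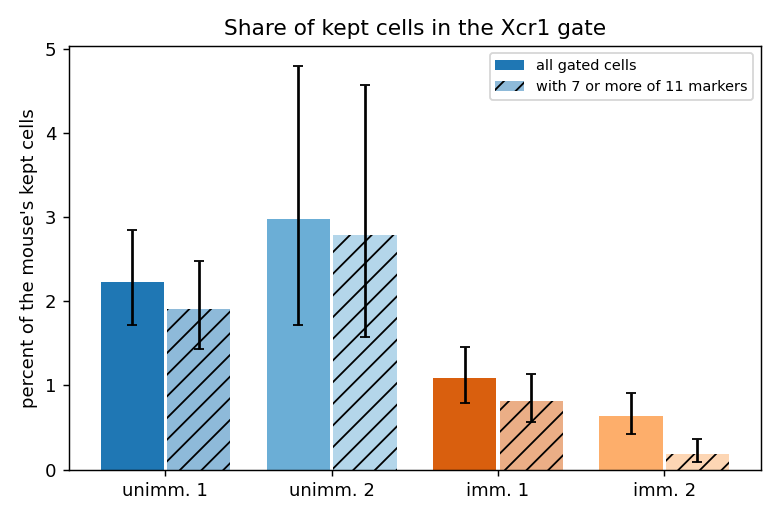
Share of each mouse's kept cells that lay in the Xcr1 gate (solid bars) and that also had 7 or more of the 11 markers (hatched bars), in percent, with exact binomial 95% intervals. The unimmunized mice stood at 2.23% and 2.98% and the immunized mice at 1.09% and 0.635%.

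The second comparison set the Xcr1-gated cells against all other kept cells of the same mice. Counts were summed per mouse, and 691 of 10430 genes were higher (6.63%) and 579 lower (5.55%) at an adjusted p under 0.05 in edgeR's quasi-likelihood test. These shares are the background of the list counts below, and no list was tested against them. Gated and other cells of a mouse share the animal, and with the mouse as a replicate block 952 genes were higher and 1233 lower. Without immunized mouse 2 the numbers were 988 and 1433. Without unimmunized mouse 1 or without unimmunized mouse 2 no gene passed, with 1842 and 2161 genes at an unadjusted p under 0.05 against 3042 with all mice. The genes of the gate were left out of the test. Since the cells were chosen by their RNA, genes linked to the gate genes differ in part by that choice, and their p-values describe the contrast.

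Of the 26 genes on a list of cDC1 identity genes outside the gate, 24 were higher in the Xcr1-gated cells and none was lower, with a median log2 fold change of 3.29 against -0.05 over all genes tested. The remaining members were Itgae and Clnk, which passed with the replicate block. The list was drawn up from what is known of cDC1s, the cells the gate was written for, so its count is a description of the gate.

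Irf8 (chr8:120736358-120756694), the transcription factor that cDC1s need to form, stood in the gated cells at 1671 and 1723 CPM in the unimmunized mice and 1338 and 678 in the immunized mice. In the other cells it stood at 204, 205, 226 and 267 CPM in the same order of mice, and the log2 fold change was 2.68 ± 0.24 (SE), adjusted p = 0.0012. All 4 gated libraries lay above all 4 of the others, with immunized mouse 2 lowest among the gated. Batf3, its partner on DNA, had 155, 157, 163 and 109 CPM in the gate and 50, 59.5, 61.2 and 66.3 CPM outside, a log2 fold change of 1.44 ± 0.18 (SE), adjusted p = 0.0033. Id2, which represses the lymphoid E protein program, had a log2 fold change of 1.83 ± 0.32 (SE), adjusted p = 0.012. Zbtb46, a factor of conventional dendritic cells, had 2.51 ± 0.41 (SE), adjusted p = 0.009.

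Wdfy4 (chr14:32959547-33185508), which cDC1s need for cross-presentation of cell-associated antigen, stood at 619.9 and 747 CPM in the unimmunized mice and 429 and 174 in the immunized mice. Other cells had 20.6 to 37 CPM, and the log2 fold change was 4.10 ± 0.30 (SE), adjusted p = 0.0011. Naaa, an acid amidase of lysosomes, had 1519.9, 1381, 1216 and 604 CPM in the gate against 90.9, 92.9, 159 and 276 outside, and Ppt1, a lysosomal thioesterase that removes palmitate from proteins, had 1833, 2299, 1517 and 685 against 133, 167, 191 and 276. Their log2 fold changes were 3.16 ± 0.29 (SE), adjusted p = 0.0013, and 3.15 ± 0.30 (SE), adjusted p = 0.0015. Within each mouse the gated library was the higher one for both enzymes, by the smallest margin in immunized mouse 2.

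Tlr3 (chr8:45395665-45411080), the sensor of double-stranded RNA, stood at 219.7 and 256 CPM in the unimmunized mice and 132 and 41.9 in the immunized mice and at 4.02 to 7.79 CPM in the other cells, a log2 fold change of 4.62 ± 0.39 (SE), adjusted p = 0.0011. Tlr11, which in mice detects profilin of protozoa, had 108, 130.5, 74.1 and 43.5 CPM in the gate, with 3.36 ± 0.28 (SE), adjusted p = 0.0011. Tlr12, its partner, had 1.86 ± 0.49 (SE), adjusted p = 0.046, and in immunized mouse 2 its level in the gate, 23.4 CPM, was close to that outside, 21.1 CPM. The receptor of single-stranded RNA Tlr7, on the dead cell list below, was lower in the gated cells, at 0.96, 0, 9.27 and 10 CPM against 23.9, 25, 28.6 and 16.6 (-2.96 ± 0.44 (SE), adjusted p = 0.0064).

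Cd24a, the heat stable antigen, stood at 165 and 189 CPM in the unimmunized mice and 197 and 63.6 in the immunized mice against 1.87 to 15.3 CPM outside (log2 fold change 4.27 ± 0.56 (SE), adjusted p = 0.0044). Cd36, a scavenger receptor, had 182, 171, 95.3 and 30.1 CPM and 3.62 ± 0.31 (SE), adjusted p = 0.0011. Cd8a, the CD8 alpha chain that resident cDC1s carry, had 283, 243, 277 and 67 CPM in the gate, with 4.46 ± 0.48 (SE), adjusted p = 0.0021. Cd207, which encodes langerin and marks a part of the lymph node cDC1s, stood at 125, 117, 55.6 and 3.35 CPM, so that it was nearly absent from the gate of immunized mouse 2, with 2 UMIs. Its log2 fold change was 6.72 ± 0.63 (SE), adjusted p = 0.0014. Itgae, the CD103 integrin of migrating tissue cDC1s, was mixed: 44.1, 40.5, 56.9 and 6.7 CPM in the gate and 65.1, 40.3, 5.98 and 1.73 outside, with 1.56 ± 0.58 (SE), adjusted p = 0.12, and passed with the mouse as a replicate block (1.42 ± 0.24 (SE), adjusted p = 0.00027).

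By the size of the change, the largest rises among well expressed genes included Gpr141b, an orphan receptor (6.62 ± 0.46), Gcsam, a signalling adaptor known from germinal center B cells (6.32 ± 0.67), Sept3, a septin (5.21 ± 0.53), Rab7b, a GTPase of late endosomes (4.13 ± 0.41), and 2 gene models without a functional name, Gm43914 (5.47 ± 0.52) and Gm36723 (4.23 ± 0.40, log2 fold change ± SE each). Their adjusted p lay between 0.0011 and 0.002. Gm43914, for example, stood at 278.3 and 301.5 CPM in the unimmunized mice and 173 and 65.3 in the immunized mice, against 1.49 to 6.22 CPM in other cells.

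**Figure D3:**
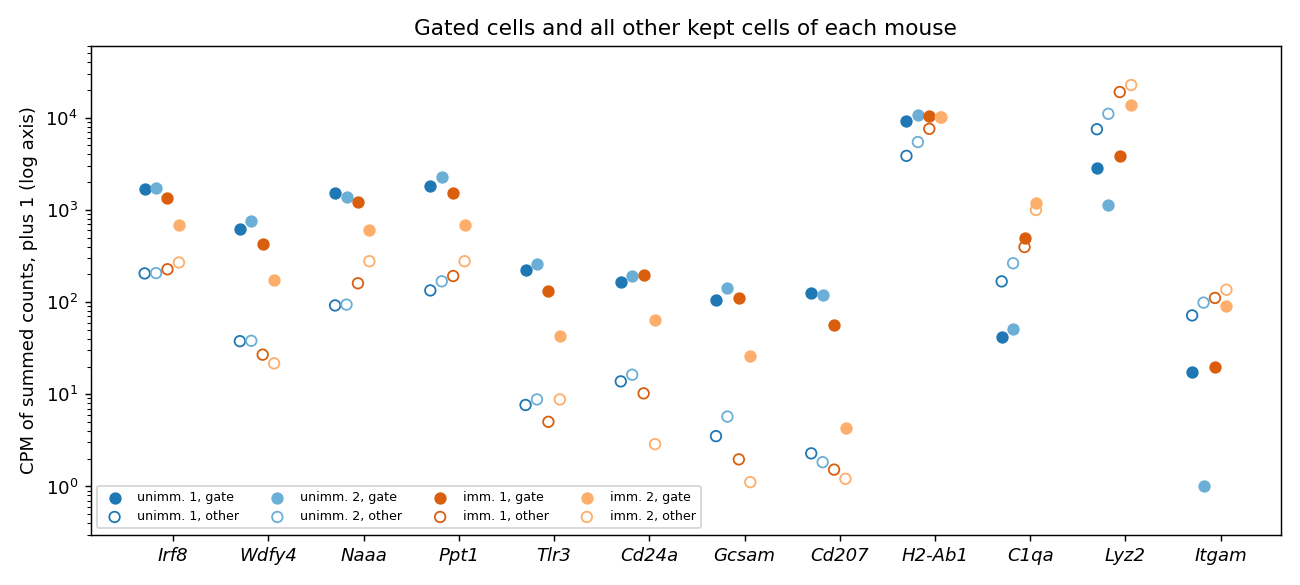
CPM of summed counts plus 1, on a log axis, for 12 genes in the Xcr1-gated cells (filled points) and all other kept cells (open points) of each mouse. The cDC1 genes from Irf8 to Cd207 are higher in the gate of every mouse, with the smallest distance for most of them in immunized mouse 2, while C1qa is at 1187 CPM in that gate and 997 CPM in its other cells.

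Genes of antigen presentation were counted by class, and the difference between the classes was not tested. Of 13 MHC class II genes, 7 were higher and none lower, with a median log2 fold change of 0.64, and with the replicate block 10 were higher and 2 lower. H2-Ab1, the class II beta chain, stood at 9255 and 10758 CPM in the unimmunized mice and 10476 and 10204 in the immunized mice. The other cells had 3852, 5441, 7572 and 10055 CPM, so the difference was large in the unimmunized mice and close to nil in immunized mouse 2 (0.79 ± 0.18 (SE), adjusted p = 0.026). Cd74, the invariant chain, had 21406, 23843, 23549 and 24062 CPM in the gate and 9820.3, 13073, 18739 and 23255 outside (0.71 ± 0.16 (SE), adjusted p = 0.027). H2-Ob and H2-Oa, the chains of the H2-O molecule that tempers class II loading, rose most (2.67 ± 0.39 and 2.25 ± 0.30), and Ciita, the master activator of class II genes, rose by 1.00 ± 0.17 (adjusted p = 0.011).

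Of 20 genes of cross-presentation and MHC class I loading, 4 were higher, 1 was lower and 15 did not pass, and the median log2 fold change was 0.09. Those higher were Psmb9, a subunit of the immunoproteasome (1.16 ± 0.19 (SE), adjusted p = 0.0089), the proteasome activator Psme1 (0.72 ± 0.14 (SE), adjusted p = 0.017), and the chaperones Pdia3 (0.92 ± 0.16 (SE), adjusted p = 0.011) and Calr (0.59 ± 0.14 (SE), adjusted p = 0.034). Psmb9 stood at 730.2 and 783 CPM in the unimmunized mice and 797 and 626 in the immunized mice and outside the gate at 229, 275, 405 and 614 CPM, where immunized mouse 2 showed almost no difference. The lower gene was Rac2, a GTPase of the phagocyte oxidase (-1.40 ± 0.22 (SE), adjusted p = 0.0078). With the replicate block 7 were higher and 4 lower. The most abundant members, B2m and H2-D1, had log2 fold changes of -0.47 ± 0.16 and -0.22 ± 0.15, with adjusted p of 0.097 and 0.38. With the block B2m was among the 4 lower (-0.46 ± 0.10 (SE), adjusted p = 0.0031) and H2-D1 was not.

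Of 17 genes of dead cell sensing and uptake that could be tested, of 20 listed, 1 was higher and 5 were lower. The higher one was Havcr2, which encodes TIM-3, a receptor of phosphatidylserine and of HMGB1 (129 and 94.5 CPM in the unimmunized mice and 109.9 and 53.6 in the immunized mice, against 15.3 to 23.1 CPM outside, 2.47 ± 0.25 (SE), adjusted p = 0.0017). The lower ones were Tlr7, Itgb5, Sirpa, Lrp1 and Axl, of which the scavenger receptor Lrp1 had -1.61 ± 0.19 (SE), adjusted p = 0.0029 and the inhibitory receptor Sirpa -1.73 ± 0.42 (SE), adjusted p = 0.036. C1qa and C1qb, the most abundant members, had log2 fold changes of -0.91 ± 0.40 and -0.90 ± 0.40 with adjusted p of 0.17 and 0.18. With the replicate block 1 gene of this list was higher and 9 were lower, the same numbers as without immunized mouse 2, and both C1q genes were among the 9 (C1qa -0.81 ± 0.15 (SE), adjusted p = 0.00053, and C1qb -0.83 ± 0.15 (SE), adjusted p = 0.00035).

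Cell division genes were higher in 9 of 19 that could be tested, of 22 listed, with none lower and a median log2 fold change of 1.11. The 9 were Mcm2, Stmn1, Mcm6, Mcm5, Cdk1, Mcm3, Mcm4, Mcm7 and Pcna, and thus mainly subunits of the replication helicase. Mcm2 stood at 35.5 and 27 CPM in the unimmunized mice and 27.8 and 23.4 in the immunized mice, against 16.8, 10.6, 7.5 and 4.32 CPM outside (1.81 ± 0.28 (SE), adjusted p = 0.0069). Stmn1, a regulator of microtubules, had 1.74 ± 0.37 (SE), adjusted p = 0.021. The mitotic marker Mki67 stood at 9.6, 0, 5.29 and 23.4 CPM in the gate and 11.1, 10, 10.9 and 17.1 CPM outside, and did not pass (-0.15 ± 0.48 (SE), adjusted p = 0.89).

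Of 12 chemokine genes tested, none was higher and Ccl17, Ccl9 and Ccl6 were lower, and with the replicate block 1 was higher and 5 were lower. For this and the next 2 lists, 6.63% of all genes were higher and 5.55% lower. With the block 952 of 10430 genes were higher and 1233 lower. Ccl9 stood at 11.5, 4.5, 50.3 and 40.2 CPM against 78.7, 77.6, 87 and 66 (-1.73 ± 0.21 (SE), adjusted p = 0.0034). Cxcl9, the interferon-induced ligand of Cxcr3, stood at 388 and 809.9 CPM in the unimmunized mice and 768 and 1212 in the immunized mice and had a log2 fold change of 0.90 ± 0.36 (SE), adjusted p = 0.14, and it was the 1 chemokine higher with the block (0.94 ± 0.15 (SE), adjusted p = 0.00011). Ccr9, a receptor of gut homing, was the higher one of 11 chemokine receptors (2.14 ± 0.35 (SE), adjusted p = 0.0091), while Gpr183, which guides cells by oxysterols, was lower (5.76, 4.5, 6.62 and 3.35 CPM against 107, 64.5, 55.1 and 17.9, -3.26 ± 0.59 (SE), adjusted p = 0.013), as was Cxcr4 (-2.15 ± 0.31 (SE), adjusted p = 0.0058). With the replicate block, and likewise without immunized mouse 2, 2 receptors were higher and 7 lower. Of 18 cytokine and costimulation genes tested, of 25 listed, 1 was higher, the T cell costimulator Cd86, at 132 and 198 CPM in the unimmunized mice and 171 and 127 in the immunized mice against 32.5 to 71.3 CPM (1.91 ± 0.23 (SE), adjusted p = 0.0029). With the block 2 of these were higher and 4 lower, and without immunized mouse 2 the numbers were 2 and 7 of 20. Il12b had no UMI in any gated library.

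Of 21 type I interferon response genes 8 were lower in the gated cells, among them Ifit3 (-2.71 ± 0.39 (SE), adjusted p = 0.0058) and Ifi27l2a (-2.06 ± 0.32 (SE), adjusted p = 0.0075), and Ifi44 was higher (1.44 ± 0.28 (SE), adjusted p = 0.018). Ifit3 stood at 1.92, 0, 23.8 and 26.8 CPM in the gate and 42.2, 53.4, 53.8 and 31.6 outside. Of 16 GTPases induced by interferon-gamma 1 was lower, Ifi47 (-1.08 ± 0.27 (SE), adjusted p = 0.039), with 8 lower under the replicate block and 12 without immunized mouse 2. Iigp1, an abundant member, stood at 24, 13.5, 58.2 and 420.2 CPM in the gate against 38.7, 44.5, 102 and 463 outside, so both populations were highest in immunized mouse 2.

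Part of the monocyte and macrophage markers were lower in the gate. Of 10 monocyte genes 4 were lower (Ly6c2, Csf1r, Lyz2 and Plac8) and Treml4 was higher, and 9 were lower with the replicate block as well as without immunized mouse 2. The summed level of the 10 was 4347, 2299, 5477 and 16915 CPM in the gate and 10091, 14332, 25004 and 27913 CPM outside. Lyz2 led the sum with 2836, 1138, 3829 and 13836 CPM. Of 12 macrophage genes tested, of 16 listed, 3 were lower, among them Adgre1 and Hmox1, while 10 were lower with the block and 11 of 14 without immunized mouse 2. Their sum was 714, 373, 1547 and 3655 CPM in the gate against 1813, 1725, 2365 and 3409 CPM outside, so in immunized mouse 2 alone the gate stood above the other cells. Of these 16 macrophage genes, 3, 6, 4 and 5 were at 0 in the gated library of the 4 mice.

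Lymphocyte and neutrophil genes were low in the gate. The rule had itself excluded cells with Cd79a, Ms4a1 or Cd3e, and its part in these counts was not tested. Of 10 T and NK cell genes 7 were lower, with Cd3g at 12.5, 0, 0 and 0 CPM in the gate and 343, 195, 51.4 and 14.7 outside, and the most abundant was Ccl5. The largest falls among well expressed genes were, besides Cd3g, the T cell genes Thy1, Lat, Skap1, Il18r1, Nkg7, Cxcr6 and Trbc2 and the neutrophil genes S100a8 and S100a9. S100a8 stood at 1.92, 4.5, 1.32 and 0 CPM against 212, 26.4, 294 and 74.2. Of 8 B cell genes 2 were lower, Cd79b and Igkc, and 4 of 8 were at 0 in the gates of both unimmunized mice and 5 in those of both immunized mice. Ighm led that list at 196, 207, 155 and 77 CPM. Of 8 cDC2 genes tested 4 were lower, with Tmem176b at 110.3, 31.5, 206 and 603 CPM against 664, 899, 982 and 775 (-2.08 ± 0.38 (SE), adjusted p = 0.013). Of 5 plasmacytoid dendritic cell genes tested, Ccr9 was higher and Ptprcap lower, and the sum of the 8 listed was 125, 94.5, 113 and 63.6 CPM in the gate. These counts rose with the replicate block, to 7 of 8 B cell genes, 7 of 8 cDC2 genes, 10 of 10 T and NK cell genes, 6 of 6 neutrophil genes and 3 of 5 plasmacytoid genes lower, and without immunized mouse 2 they were 7, 7, 10, 7 of 7 and 3.

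The genes used for the sort were at low levels. Itgam, which encodes CD11b, stood at 16.3 and 0 CPM in the unimmunized mice and 18.5 and 88.7 in the immunized mice, against 70.7, 97.6, 109.8 and 135 CPM outside (-1.87 ± 0.47 (SE), adjusted p = 0.039). Among marker-rich cells it was 11.1, 0, 12.7 and 10.7 CPM. Siglec1 had 19 UMIs over all gated cells (2.88, 4.5, 6.62 and 16.7 CPM), and its difference from the other cells did not pass without the replicate block (-1.26 ± 0.47 (SE), adjusted p = 0.12) but did with it (-1.26 ± 0.37 (SE), adjusted p = 0.019). The Tomato transcript had 3 UMIs over the 153 gated cells, where 3 counts of a gated library correspond to 2.88, 13.5, 3.97 and 5.02 CPM, and 2.22 to 6.16 CPM in the other cells. Over all gated libraries together, 3 counts correspond to 1.15 CPM, below the 2.22 to 6.16 CPM outside. The transcript was tested and was not called, with or without the replicate block. Its counts were too few to give the size of a difference from the rest of the sort.

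Surface protein was compared as the centred log ratio (CLR) of antibody counts per cell, on a natural log scale, averaged per mouse. CD11c, the integrin typical of dendritic cells, was higher in the gated cells, with a mean difference of 1.27 ± 0.30 (SD, n = 4 mice, higher in 4 of 4). The median cell had 153, 180, 110 and 80 CD11c counts in the gate and 15, 18, 16 and 24 outside. CD169 differed by 0.394 ± 0.108 and CD68, a phagocyte protein, by 0.250 ± 0.083, both higher in 4 of 4 mice. F4/80 differed by -0.451 ± 0.128, Ly-6c by -1.02 ± 0.26 and Ly-6g by -0.447 ± 0.117, each lower in 4 of 4. A CLR is relative to the mean of the 6 antibodies in a cell, so a rise in CD11c by itself lowers the others. The median F4/80 counts were 6, 3, 4 and 7.5 in the gate and 5, 4, 4 and 5 outside. Those of Ly-6c were 47, 42.5, 45.5 and 55.5 in the gate and 42, 48, 74 and 123 outside. For each of the 6 antibodies the two-sided exact sign-flip test gave p = 0.12, the smallest possible with 4 mice, and the same value after adjustment.

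CD169 protein showed the widest range between mice. Its mean CLR in gated cells was 1.14 and 1.01 in the unimmunized mice and 0.242 and -0.285 in the immunized mice, and in the other cells 0.886, 0.512, -0.212 and -0.657. The same order of mice thus held inside and outside the gate. In marker-rich gated cells the values were 1.15, 0.971, 0.479 and 0.737. Gated cells also bound more antibody altogether, with a median total of 347, 277, 226 and 267 counts against 150, 168, 171 and 198, and its part in the differences was not tested. Counted per 10000 antibody counts on a log2 scale, Ly-6g turned to a difference of 0.116, higher in 3 of 4 mice, at median counts of 1 to 3 per gated cell.

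**Figure D4:**
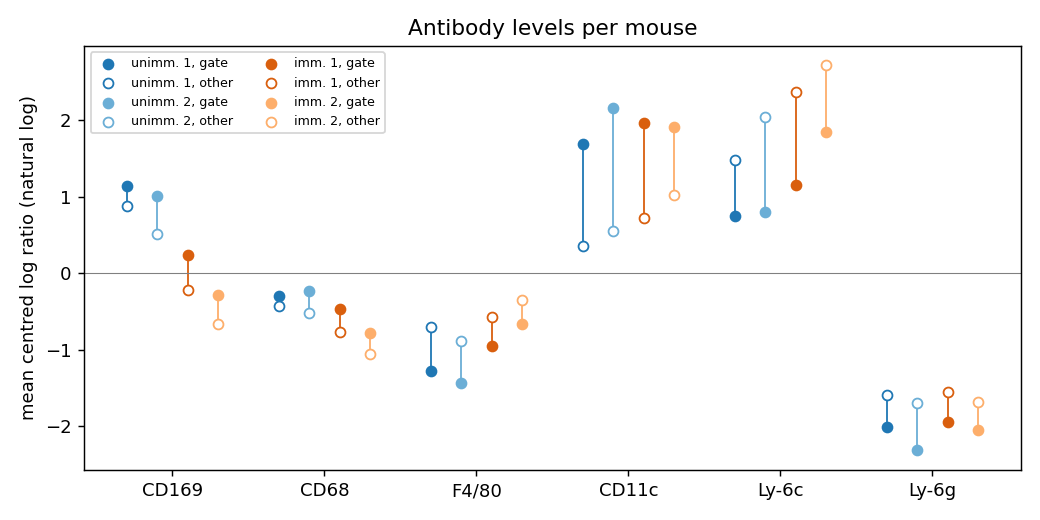
Mean centred log ratio (natural log) of 6 antibodies per mouse in the Xcr1-gated cells (filled points) and all other kept cells (open points), with a line joining those of the same mouse. CD11c, CD169 and CD68 are higher and F4/80, Ly-6c and Ly-6g lower in the gate of each of the 4 mice.

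The third comparison set the Xcr1-gated cells against 267 cells of a migratory dendritic cell gate (3 or more of Ccr7, Fscn1, Ccl22 and Cacnb3), with 66 and 13 cells in the unimmunized mice and 128 and 60 in the immunized mice. Of 7893 genes, 1366 were higher (17.3%) and 1514 lower (19.2%) in the Xcr1-gated cells. Genes of either gate were left out. The smallest of these libraries held 131762 UMIs. Without unimmunized mouse 1 the numbers were 708 and 813, the largest move when a mouse was left out.

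Each of the 18 maturation genes outside the gate was lower in the Xcr1-gated cells, with a median log2 fold change of -4.30 against 0.03 over all genes. Socs2, a brake on cytokine signalling, stood at 3.84 and 4.5 CPM in the unimmunized mice and 6.62 and 6.7 in the immunized mice, and at 832, 888, 694 and 672 CPM in the migratory gate (-7.30 ± 0.24 (SE), adjusted p = 6.1e-13). Nudt17, a nudix hydrolase, had 2 UMIs in the Xcr1-gated libraries and 1324 in the migratory libraries, and Mreg, a regulator of organelle transport, 1 and 590.0. Relb and Nfkb2, transcription factors of the noncanonical NF-kB pathway, were among the 18, and the abundant Marcksl1, a substrate of protein kinase C, had -3.29 ± 0.21 (SE), adjusted p = 1.4e-09. The rule had itself excluded cells with 3 or more migratory genes, so this count is a description of the gates.

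Of 19 cytokine and costimulation genes tested, 12 were lower and 2 higher. Cd83 stood at 52.8, 126, 70.2 and 33.5 CPM against 584, 531, 422 and 397 (-3.02 ± 0.28 (SE), adjusted p = 1.4e-07). Il12b, Aldh1a2 and Itgb8 had no UMI in any of the 4 gated libraries. Taking 3 counts over those libraries as the floor and pooling the mice, they were at least 19.9-fold, 96.1-fold and 24.7-fold lower than in the migratory cells. Such pooled bounds, here and below, need not hold in each mouse. Aldh1a2, the enzyme that makes retinoic acid, stood at 263, 539, 5.54 and 51.8 CPM in the migratory cells. In immunized mouse 1 its 5.54 CPM was near the 3.97 CPM that correspond to 3 counts of the gated library. The higher ones were Tgfb1 (1.93 ± 0.23 (SE), adjusted p = 2.5e-06) and Cd86 (0.63 ± 0.21 (SE), adjusted p = 0.025). Ccl17 had 0, 0, 0 and 1.67 CPM in the Xcr1-gated cells and 382, 1267, 217 and 177 in the migratory cells, and Ccl5 343, 63, 87.4 and 1063 and 6632, 5108, 11246 and 9613 CPM (-4.60 ± 0.57 (SE), adjusted p = 4e-06).

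Other genes among the largest falls were Mucl1, Insm1, Tmem150c and Mir155hg, each without a UMI in the gated libraries and at least 103-fold, 108-fold, 102-fold and 77.9-fold lower. Ankrd33b had 1 UMI in the Xcr1-gated libraries and 609 in the migratory ones. Insm1, a zinc finger factor known from neuroendocrine cells, stood at 60.7 to 147 CPM in the migratory gate, and Mir155hg is the host gene of miR-155.

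Class II genes went in the opposite direction, with 10 of 13 higher and 1 lower. H2-Ab1 had 9255 to 10758 CPM in the Xcr1-gated cells and 1920.1 to 2576 in the migratory cells (1.99 ± 0.14 (SE), adjusted p = 4.3e-09), March1, the ligase that removes class II from the surface, had 109 to 157 and 0 to 6.37 CPM (4.42 ± 0.30 (SE), adjusted p = 2.6e-09), and Ciita had 2.93 ± 0.20 (SE), adjusted p = 2.8e-09. Ifi30, a lysosomal thiol reductase, was the lower one (-1.26 ± 0.18 (SE), adjusted p = 1.6e-05). Among class I genes 9 of 20 were lower and 2 higher, led by Nlrc5, the activator of class I genes (-2.14 ± 0.24 (SE), adjusted p = 1.1e-06), and Tapbpl (-2.09 ± 0.24 (SE), adjusted p = 1.4e-06), with B2m at 1791, 1647, 2057 and 3104 CPM against 4363, 4311, 5229 and 5009.8 (-1.28 ± 0.14 (SE), adjusted p = 6e-07). The higher ones were Pdia3 (1.41 ± 0.17 (SE), adjusted p = 4.2e-06) and Calr (1.18 ± 0.17 (SE), adjusted p = 3.1e-05).

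Of 25 identity genes tested against the migratory cells, 21 were higher and 2 lower. Tlr3 had 1 UMI in the migratory libraries and 411 in the Xcr1-gated libraries. Wdfy4 stood at 3.16 to 7.97 CPM there (6.05 ± 0.37 (SE), adjusted p = 9e-10) and Naaa at 7.59 to 34.8 (5.36 ± 0.32 (SE), adjusted p = 7.7e-10). The lower ones were Ly75, which encodes the uptake receptor DEC-205 (47, 45, 25.2 and 11.7 CPM against 79, 91.1, 129.7 and 104, -1.84 ± 0.23 (SE), adjusted p = 4.7e-06), and Batf3 (-0.96 ± 0.19 (SE), adjusted p = 0.0005). Further large rises were Mctp1, a calcium-binding membrane protein with 3 and 230.0 UMIs, and Ckb, the brain type creatine kinase (5.67 ± 0.39). Cxcr3 had no UMI in the migratory libraries and was at least 32.5-fold higher in the Xcr1-gated cells, at 38.4, 36, 46.3 and 6.7 CPM. Of 12 division genes tested 9 were higher, with Mcm2 at 0 to 6.64 CPM in the migratory gate (2.78 ± 0.44 (SE), adjusted p = 6.6e-05).

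Interferon genes were also set against the migratory cells, a comparison in which 17.3% of all genes were higher and 19.2% lower. Of 21 type I response genes 4 were higher, led by Ifi44 (4.13 ± 0.48 (SE), adjusted p = 2.1e-06) and with Ly6e the most abundant (2.92 ± 0.22 (SE), adjusted p = 8.5e-09), and Usp18 and Ifih1 were lower. Of 14 GTPases tested 5 were lower and Irgm1 was higher, with Gbp9 furthest apart (-2.09 ± 0.24 (SE), adjusted p = 1.4e-06). Of 8 chemokine receptor genes 4 were higher, among them Cxcr3 and Ccr9, and Gpr183 and Cxcr4 were lower. Of 11 macrophage genes 5 were higher than in the migratory cells, among them C1qa, C1qb and Apoe, and in marker-rich cells the log2 fold change of C1qa was -0.016.

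The fourth comparison set the Xcr1-gated cells against 265 cells of a cDC2 gate (Flt3 with Cd209a or Clec10a, no Xcr1, Clec9a or Cadm1, no lymphocyte gene and fewer than 3 migratory genes), with 52, 13, 166 and 34 cells per mouse. Of 7893 genes 428 were higher (5.42%) and 399 lower (5.06%). Without unimmunized mouse 1 the numbers were 81 and 81, without unimmunized mouse 2 198 and 207, without immunized mouse 1 247 and 223, and without immunized mouse 2 608 and 627. DESeq2 gave 245 and 230.

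Each of 6 cDC2 markers tested was lower in the Xcr1-gated cells, with a median log2 fold change of -2.36. The gates were themselves chosen by genes of the type 1 and type 2 subsets. This count and that of the identity genes below are therefore descriptions of the gates. Irf4, the factor of the type 2 subset, stood at 0.96, 0, 2.65 and 6.7 CPM against 58.5, 6.8, 18.5 and 3.51 (-3.47 ± 0.74 (SE), adjusted p = 0.0045). Sirpa had 70, 18, 87.4 and 342 CPM against 415, 415, 424 and 478 (-1.93 ± 0.30 (SE), adjusted p = 0.00031), and Itgam -1.93 ± 0.41 (SE), adjusted p = 0.0044. Irf4 rested on 7 UMIs in the 4 gated libraries, 4 of them in immunized mouse 2, where the order of the 2 gates could not be told at this depth. For Sirpa the gated library of immunized mouse 2 was the nearest to the cDC2 gate. Of 25 identity genes 24 were higher, and Zbtb46, which both conventional subsets share, was the exception (0.23 ± 0.22 (SE), adjusted p = 0.63). Irf8 had 101, 81.6, 149.9 and 155 CPM in the cDC2 gate (3.56 ± 0.28 (SE), adjusted p = 2.3e-07), Id2 3.54 ± 0.25 (SE), adjusted p = 1.4e-07 and Ly75 4.19 ± 0.45 (SE), adjusted p = 9.5e-06. Gcsam had 1 UMI in the cDC2 libraries.

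Of the class II genes 1 of 13 was higher and 3 were lower than in the cDC2 gate, with a median log2 fold change of -0.11. H2-Ab1 had 9255 to 10758 CPM in the Xcr1-gated cells and 10583 to 11167 in the cDC2 gate, a log2 fold change of 0.03 ± 0.14 (SE). H2-DMb2 (-1.97 ± 0.22 (SE), adjusted p = 1.5e-05), Ifi30 (-1.18 ± 0.18 (SE), adjusted p = 0.00021) and the protease Ctss (-0.91 ± 0.19 (SE), adjusted p = 0.0038) were lower and H2-Ob was higher (1.10 ± 0.31 (SE), adjusted p = 0.027). Class I loading genes had 6 of 20 higher, among them Tap1 and Tap2, which carry peptides into the endoplasmic reticulum (Tap2 1.22 ± 0.24 (SE), adjusted p = 0.0021), and Psmb9 (1.27 ± 0.16 (SE), adjusted p = 5.3e-05), and Cybb, the catalytic subunit of the phagocyte oxidase, lower (-1.54 ± 0.40 (SE), adjusted p = 0.018). Cybb stood at 131, 22.5, 201 and 939 CPM in the Xcr1-gated cells, so that 3 mice lay below and immunized mouse 2 above the cDC2 range of 544 to 836 CPM.

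Among the remaining lists, Serpinb6b, a serine protease inhibitor, and Apol7c, a lipid-binding protein, both on the maturation list, were higher in the Xcr1-gated cells (5.01 ± 0.36 (SE), adjusted p = 1.4e-07, and 3.11 ± 0.41 (SE), adjusted p = 7e-05), while Mreg, Slco5a1, Il4i1, Relb and Marcksl1 were lower. Cd86 (1.91 ± 0.22 (SE), adjusted p = 2.2e-05) and Cxcr3 (3.75 ± 0.70 (SE), adjusted p = 0.002) were higher, and Icosl, Tnfsf9, Ccl9, Gpr183 (-3.91 ± 0.46 (SE), adjusted p = 2.3e-05), Cx3cr1 (-2.23 ± 0.34 (SE), adjusted p = 0.00026) and Cxcr4 were lower. Mcm6, Mcm2 and Mcm5 were higher, 3 of 12 division genes. Of the interferon genes Ifi44 was higher and Ifi27l2a lower, of 21, and none of 14 GTPases passed. The largest falls among well expressed genes were Adam11, which had no UMI in the gated libraries and was at least 40.3-fold lower, the lectin gene Cd209d (-5.01 ± 0.80), Cd7 (-4.29 ± 0.51), Klrd1 (-4.15 ± 0.31), the calcium-binding S100a4 (-3.20 ± 0.38) and the transcription factor Sox4 (-3.13 ± 0.71). S100a4 stood at 296, 18, 442 and 1302 CPM against 3758, 4122, 4379 and 3287. Cd209d, Klrd1, Ifi205 and the Gbp and class I genes belong to families of similar sequence, and their counts may share reads with relatives.

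**Figure D5:**
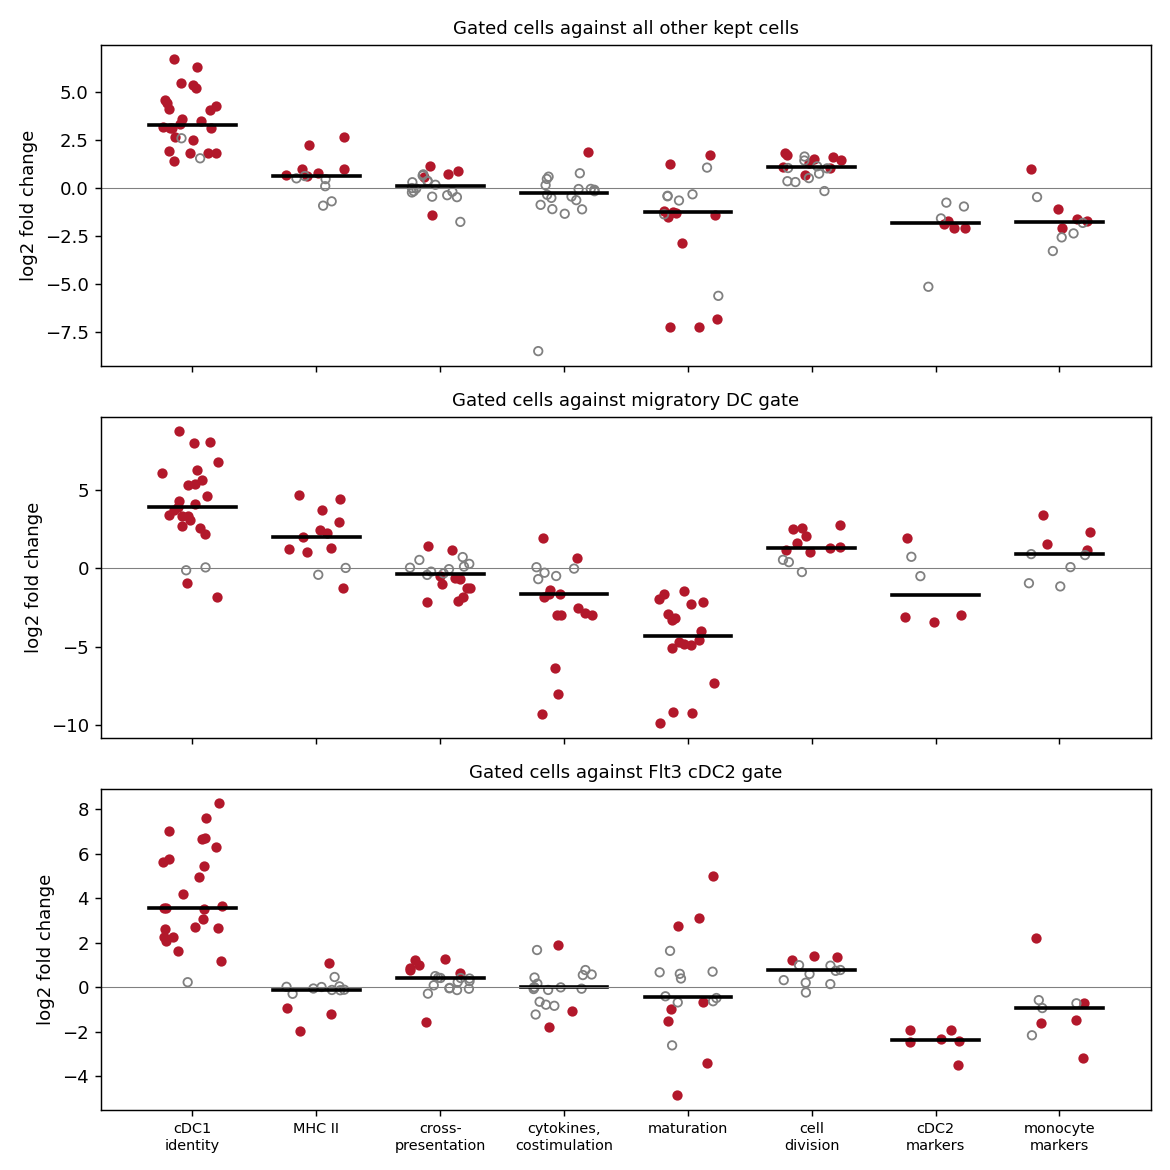
Log2 fold change of each gene of 8 lists in the Xcr1-gated cells against all other kept cells, the migratory dendritic cell gate and the cDC2 gate. Red points passed at an adjusted p under 0.05, open points did not, and black lines are list medians. The identity medians are 3.29, 3.92 and 3.56, and the maturation median is -4.30 against the migratory gate.

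The last comparison asked how Xcr1-gated cells of immunized and unimmunized mice differed. No gene of 10430 passed in edgeR in either direction (0.0% higher and 0.0% lower), with 1085 at an unadjusted p under 0.05. DESeq2 called 100 higher and 21 lower. Without immunized mouse 2, 22 genes were higher and 1 was lower, and without immunized mouse 1, 410 were higher and 143 lower. Each of these fits leaves 1 immunized library, which is assumed to vary like the other groups, so the calls do not rest on a spread between immunized mice. In simulated counts of the same design, 48 of 100 genes changed by 2 on the log2 scale and 9 of 100 changed by 1 were recovered, so that changes of this size could have been missed. The simulation gave all genes the same dispersion and added no differences in cell content between mice. Genes that vary more between mice would be recovered less often.

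Both immunized mice lay above both unimmunized mice for 19.6% of the 10430 genes and below for 18.5%. Of the 26 identity genes 16 were lower in both immunized mice and none was higher in both, and Irf8 (1671, 1723, 1338 and 678 CPM, -0.68 ± 0.32 (SE), adjusted p = 0.51) and Tlr3 (-1.33 ± 0.52 (SE), adjusted p = 0.45) were among the 16. Immunized mouse 2, in which most gated cells had few such markers, was the lowest mouse for both. In marker-rich cells Irf8 had 1708, 1718, 1561 and 1397 CPM and Tlr3 223, 261, 159 and 123 CPM, and 12 of the 16 still lay below in both immunized mice. The 11 markers that define marker-rich cells, Irf8 and Tlr3 among them, are all on the identity list, so these values describe cells chosen in part by the same genes. All 8 cDC2 markers tested, 7 of 12 macrophage and 6 of 10 monocyte markers lay above in both immunized mice, while 3 of the 12 and 1 of the 10 lay below in both and no cDC2 marker did. Among those above was C1qa at 40.3, 49.5, 492 and 1187 CPM (4.31 ± 0.64 (SE), adjusted p = 0.29), which passed in the fit with immunized mouse 1 as the 1 immunized library (log2 fold change 3.64, edgeR adjusted p = 7.3e-06). In that library 4 of 44 cells had over 1000 CPM of the C1q genes and held nearly all of their UMIs. In marker-rich cells C1qa was 37.4, 45.8, 161 and 21.3 CPM, so that the immunized mice no longer stood together. The 161 CPM came mostly from 1 cell, which held 200 of the 251 C1q UMIs of the 33 marker-rich cells, and without it C1qa was 36.0 CPM. In marker-rich cells none of the 8 cDC2 markers, 2 of the 7 macrophage and 1 of the 6 monocyte markers still lay above in both. In marker-rich cells alone no gene passed in edgeR, with 692 at an unadjusted p under 0.05, and both immunized mice lay above for 16.3% of the genes and below for 18.0%. Of 19 cell division genes 6 lay above in both immunized mice and none below, and in marker-rich cells 8 lay above and none below. Of 18 maturation genes 1 lay above and 4 below, and in marker-rich cells none lay above and 9 below.

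Of 21 type I interferon response genes 12 lay above in both immunized mice and 2 below, against 19.6% and 18.5% of all genes. In marker-rich cells 3 of the 12 (Ifit1, Oasl1 and Bst2) still lay above. There 4 of the 21 (Irf7, Ifi44, Ly6e and Ifih1) lay below, and over all genes 16.3% lay above and 18.0% below. Ifit3 stood at 1.92, 0, 23.8 and 26.8 CPM and Ifit2 at 2.88, 9, 33.1 and 16.7 CPM (4.06 ± 0.77 (SE), adjusted p = 0.29, and 2.72 ± 0.60 (SE), adjusted p = 0.29), and both passed with immunized mouse 1 as the 1 immunized library, its spread again taken from the other groups (log2 fold changes of 4.01 and 3.15, adjusted p = 0.04996 and 0.0301). In marker-rich cells Ifit3 was 1.01, 0, 14.3 and 0 CPM and Ifit2 3.03, 9.16, 25.4 and 5.33 CPM, so that the immunized mice did not both lie above the others for either gene. Of 16 GTPases induced by interferon-gamma 8 lay above and none below. In marker-rich cells 3 of the 8 (Iigp1, Igtp and Tgtp2) still lay above and 1 of the 16, Gbp9, lay below. Iigp1 had 24, 13.5, 58.2 and 420.2 CPM, with the highest value in immunized mouse 2 (3.49 ± 1.14 (SE), adjusted p = 0.4) and 25.2, 13.7, 58.8 and 101 CPM in marker-rich cells.

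Of 13 class II genes 6 lay above in both immunized mice and 1 below, and of 20 class I loading genes 10 above and 2 below. Over all genes 19.6% lay above and 18.5% below. In marker-rich cells 3 of the 6 (H2-DMb1, Ctss and Ifi30) and 5 of the 10 (Tap2, Calr, Psmb8, Psmb10 and Cybb) remained above. Below in both immunized mice were 1 of the 13 there (H2-Ob) and 4 of the 20 (Tap1, Canx, Erap1 and Nlrc5). Over all genes the marker-rich shares were 16.3% above and 18.0% below. The abundant class II genes H2-Ab1 and Cd74 were level across the gates of the 4 mice, within 9255 to 10758 and 21406 to 24062 CPM, with log2 fold changes of 0.10 ± 0.25 and 0.12 ± 0.22 (SE).

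The immunization effect was also set against that in all other kept cells of the same mice. No gene of 10430 passed for this difference (0.0% in each direction), with 631 at an unadjusted p under 0.05. DESeq2 called 1 higher and 2 lower, and in marker-rich cells no gene passed in edgeR, with 826 at an unadjusted p under 0.05. With the mouse as a replicate block 16 genes were higher and 7 lower, among them Cxcl9, the H2-Ab1 and Cd74 genes, Itgae and Naaa, named here after their values had been seen. The 16 higher also held C1qa, C1qb and C1qc, macrophage genes that are on the dead cell list too, and the cDC2 marker Cd209a, and the part of cells carrying these genes in the other differences was not tested. Cxcl9 stood at 388, 809.9, 768 and 1212 CPM in the gate and 149, 205, 621 and 1604 CPM outside, so that the gate was higher in both unimmunized mice and in immunized mouse 1, and lower in immunized mouse 2 (blocked log2 difference of the immunization effects -1.89 ± 0.30 (SE), adjusted p = 0.0081). In marker-rich cells it stood at 401, 820.3, 811 and 159.9 CPM, and in the marker-poor cells of immunized mouse 2 at 1694 CPM, so that among marker-rich cells this mouse was the lowest. For H2-Ab1 and Cd74 the blocked differences were -1.05 ± 0.20 (SE), adjusted p = 0.032 and -0.97 ± 0.16 (SE), adjusted p = 0.016, and the other cells of the immunized mice held more of each than those of the unimmunized mice. Itgae outside the gate went from 65.1 and 40.3 CPM to 5.98 and 1.73, and stood at 44.1, 40.5, 56.9 and 6.7 CPM inside (blocked difference 3.21 ± 0.48 (SE), adjusted p = 0.0049) and at 45.4, 41.2, 63.6 and 21.3 CPM in marker-rich cells. Naaa, the other identity gene called, went in the opposite direction (-2.11 ± 0.42 (SE), adjusted p = 0.044). In marker-rich cells Naaa stood at 1555, 1402, 1399 and 1109 CPM, and in the marker-poor cells of immunized mouse 2 at 373 CPM.

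The promoters of the identity genes were searched for the letters bound by factors of this lineage. Of 26 genes on the list 21 had a promoter in the RefSeq table (build GRCm38.p6, 250 bases before to 50 after the start), and of the 3 positive gate genes 2. The letters TGANTCA, the site of AP-1 and Batf factors, occurred on either strand in 2 of the 21 (9.52%), against 8.97% of 27025 genes. GAAA, then any 2 bases, then GAAA, the core of sites bound by interferon regulatory factors, occurred in 2 (9.52%), against 3.99%. TTCC, any base and GGAA, the site of STAT factors, occurred in none, against 1.35%. Neither Xcr1 nor Clec9a held one. A match of these letters is a description and not a bound site. The promoters of Cd207, which holds the first motif, and of Ifi205, which holds the second, are shown 5′ to 3′ on the minus strand with the matches in capitals.
Cd207 (chr6:83677808-83678107): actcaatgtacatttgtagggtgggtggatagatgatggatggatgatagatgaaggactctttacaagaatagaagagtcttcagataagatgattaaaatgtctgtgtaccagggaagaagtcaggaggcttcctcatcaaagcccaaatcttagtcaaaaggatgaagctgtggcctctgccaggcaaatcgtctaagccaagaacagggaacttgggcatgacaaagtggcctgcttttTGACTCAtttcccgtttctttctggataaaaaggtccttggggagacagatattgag
Ifi205 (chr1:174031706-174032005): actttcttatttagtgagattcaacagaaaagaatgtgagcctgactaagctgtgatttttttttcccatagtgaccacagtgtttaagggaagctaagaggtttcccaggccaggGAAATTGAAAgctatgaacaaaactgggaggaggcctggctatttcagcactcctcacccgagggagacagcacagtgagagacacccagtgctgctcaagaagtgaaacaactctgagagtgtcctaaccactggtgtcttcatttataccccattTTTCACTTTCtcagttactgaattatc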

How the data were processed

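The authors deposited a matrix of UMI counts (Cell Ranger 4.0.0 and mm10 in the submitters' processing notes, captures joined by aggr) and a pair of CITE-seq-count matrices for hashtags and antibodies. Whether aggr subsampled reads is unknown here. The 3 matrices hold whole counts that were not normalized further.

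Cells were kept with at most 25% mitochondrial UMIs, a barcode sequence in 1 capture, and 1 hashtag with at least 80% of the hashtag counts and 10 counts. Doublets within 1 mouse were not removed, and the 10% of barcodes with the highest Scrublet score (scanpy 1.11.5) were removed as an alternative. Counts were summed per mouse and gate (libraries of at least 5 cells) and fitted with edgeR 4.0.16 (R 4.3.3; TMM, filterByExpr, quasi-likelihood test, Benjamini-Hochberg), without a mouse term. Libraries of 1 mouse share the animal, so the mouse pairs them and was fitted as a replicate block. DESeq2 1.42.0 was an alternative. In simulated counts, 87 of 100 genes changed by 2 (log2) were recovered against all other cells, 89 against migratory and 92 against cDC2-gated cells. Antibody values are centred log ratios with 1 added.

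The members, lists and tests were chosen with earlier results of these data known. Genes named are gate and sort genes, up to 4 called members of each list and its 2 most abundant, and the 10 largest rises and falls with mean log2 CPM from 5 upwards. A few others are named for a count or a role, after their values had been seen. Coordinates are from GENCODE M21 and sequences from RefSeq or the deposited tag lists. Some genes are counted in their lists but not reported here by name.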

Additional observations from a re-analysis of the deposited data

Results flagged for a closer look

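Among the values per mouse of 6 antibodies and 26 identity genes, a Dixon test over the 4 mice at the 95% level singled out 4, where chance singles out about 1 in 20. Immunized mouse 2 stood apart for 3 genes, with a log2 ratio of gated to other cells (CPM plus 1) of 2.29 for Tlr3, 1.70 for Cd36 and 2.07 for Rab7b. The other 3 mice lay between 4.73 and 4.87 for Tlr3, between 3.57 and 3.82 for Cd36 and between 4.26 and 4.66 for Rab7b. For the CD68 antibody unimmunized mouse 1 had a CLR difference of 0.127, against 0.275 to 0.304 in the others.

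Beyond the kept cells, 77 of 3861 barcodes (1.99%) that lay in 1 capture but had no single hashtag passed the gate on genes, against 1.26% of kept cells. They belong to no mouse and entered no comparison.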

How the results depend on the processing

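The share difference was negative in all 12 alternatives run. Antibody differences kept their sign in all of theirs except Ly-6g (0.116 on the log2 scale per 10000 counts). With 2 mice per condition and 16 gated cells in unimmunized mouse 2, counts of calls moved with the mice kept: 0 to 2421 against other cells, 0 to 553 for immunization, 0 to 104 for its difference from other cells, 1521 to 2949 against migratory cells and 162 to 1235 against cDC2-gated cells. The mouse as a replicate block gave 2185 calls against other cells and 23 for the difference of immunization effects, and changed no other call count by over 1.5 times.

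Against all other cells (1270 calls), capture 2 alone gave 573, no filter on low counts 2454 and marker-rich cells alone, chosen after the data were seen, 2268. For immunization (0 calls), the stricter hashtag rule gave 1, no filter 411 and DESeq2 121; for its difference from other cells (0 calls), no filter gave 153 and DESeq2 3. Against migratory cells (2880 calls), capture 2 alone gave 1629. Against cDC2-gated cells (827 calls), capture 1 gave 487, capture 2 350, marker-rich cells 1460 and DESeq2 475. Fewer cells per library enter in single captures; otherwise the cause was not tested. Among named genes, C1qa (-0.016), C1qb (-0.20) and Mgl2 (-0.78) turned negative against migratory cells in marker-rich cells, Top2a (-0.47) in capture 1, and Chil3 turned positive (0.99) against cDC2-gated cells under the stricter hashtag rule.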
